A study of Homo sapiens with 12 samples.

Results

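The proteasome genes of HEK293T cells were examined across fed and starved cells with and without extra TRPML3. The set held 53 of the 41878 gene rows of the count table: every row whose symbol was PSMA, PSMB, PSMC, PSMD, PSME, PSMF or PSMG followed by digits only, together with POMP, ADRM1, NFE2L1, NFE2L2 and DDI2. By role these were 7 core alpha and 7 core beta subunits, 5 tissue-specific core subunits, 10 base and 8 lid subunits and 8 assembly factors. The others were 5 activators and inhibitors and 3 regulators, the transcription factors NFE2L1 and NFE2L2 and the protease DDI2. After a filter on low counts 50 of the 53 were tested, leaving out PSMA8, PSMB8 and PSMB11.

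HEK293T is an established human embryonic kidney line that is easily transfected. All cells received 1 µg of plasmid, either a control vector or one for TRPML3, the endosomal and lysosomal cation channel encoded by MCOLN3. They were then kept in medium with 10% serum (fed) or without serum for 4 h (starved), a treatment used to induce autophagy. Polyadenylated RNA was sequenced in 3 biological replicates of each of the 4 groups: vector fed, vector starved, TRPML3 fed and TRPML3 starved. Every group was transfected, so untransfected cells form no group, and TRPML3 was overexpressed transiently from a plasmid rather than from its own locus.

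The proteasome degrades proteins tagged with ubiquitin. Its barrel-shaped core stacks rings of alpha subunits, which gate the entrance, around rings of beta subunits, of which PSMB5, PSMB6 and PSMB7 carry the catalytic sites. In lymphoid cells and after interferon, PSMB8, PSMB9 and PSMB10 take the place of these 3 and form the immunoproteasome. The regulatory particle on the core has a base, whose PSMC ATPases unfold substrates and whose PSMD2, PSMD4 and ADRM1 bind ubiquitin or its carriers, and a lid, whose PSMD14 cuts ubiquitin off. The subunits are needed in fixed numbers per particle, and their genes share a transcription factor, NFE2L1, which is freed by the protease DDI2 when proteasome activity falls short and binds antioxidant response elements. The related factor NFE2L2 binds the same kind of element.

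Of the 53 genes, 47 had 1 or more promoter windows in RefSeq (GRCh38.p14), 59 windows in all. Because the response elements are the textbook link between these genes, the 250 bases before each start were searched on both strands for the letters TGACNNNGC, the core of an antioxidant response element. It was found in 14 of the 47 genes and in 25.4% of the 59 windows, against 10.9% of 35116 windows of all genes and 11.2% of the 22199 windows of protein-coding genes. Overlapping windows of 1 gene share bases, and a match of letters is not a bound site. The bases around the match are shown for the core subunit PSMB3 (chr17:38752621-38752661, plus strand), the lid subunits PSMD3 (chr17:39980754-39980794, plus strand) and PSMD12 (chr17:67366718-67366758, minus strand), the base subunit ADRM1 (chr20:62302743-62302783, plus strand) and the assembly factor PSMD9 (chr12:121888672-121888712, plus strand), 5 genes in which the stretch lies outside the exons of GENCODE release 29. PSMB9 and PSME1 also had a match in such a stretch, which is not shown. Each stretch shown runs 5′ to 3′ on the gene's strand, with the match in capitals.
PSMB3: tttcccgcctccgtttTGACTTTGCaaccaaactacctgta
PSMD3: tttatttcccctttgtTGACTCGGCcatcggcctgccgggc
PSMD12: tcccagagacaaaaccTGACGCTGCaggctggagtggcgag
ADRM1: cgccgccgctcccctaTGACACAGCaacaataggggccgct
PSMD9: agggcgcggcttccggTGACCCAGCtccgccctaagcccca
A second common promoter motif, CCAAT, was found in 37.3% of the members' windows and in 32% of all windows.

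Libraries held 33101540 to 43700547 counts, of which these 53 genes took 0.596% to 0.716%. The detection floor of 3 counts was at most 0.0906 CPM (counts scaled to a common library size by the TMM method). MCOLN3 was at 9.30 to 18.4 CPM in the 6 vector libraries and at 4926 to 58195 CPM in the 6 TRPML3 libraries, as labelled. All 8 HEK293 line markers were detected (summed level 547 to 1038 CPM). The 8 markers of other cell types summed to 20.8 to 42.3 CPM, with UMOD at 0 in every library and PTPRC at a mean of 0.00816 CPM. The highest of these markers were the fibroblast genes COL3A1 (mean 18.3 CPM) and COL1A1 (mean 10.1 CPM). Both means exceeded those of the HEK293 line markers TUBB3 (7.58 CPM) and PAX2 (3.39 CPM). Mitochondrial genes took 4.83% to 5.70% of counts in the 4 libraries numbered replicate 3, 2.81% to 4.40% in replicate 1 and 1.05% to 2.52% in replicate 2. The p-values measure the spread between these cultures of 1 line.

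Levels per kilobase of the principal transcript lay within a factor of 2 of their median for most, but not all, subunits of the 26S particle. The mean over 12 libraries ran from 16.7 CPM per kb for ADRM1 to 196 for PSMB1, an 11.7-fold range, with a median of 74.4, and 26 of the 32 core, base and lid subunits lay within a factor of 2 of that median. The median per-kb level was 112 for core alpha, 76.2 for core beta, 83.6 for base and 48.8 for lid subunits. The lowest subunits next to ADRM1 were the lid subunit PSMD12 at 18.9 and the core subunit PSMA5 at 38.9 CPM per kb. The lengths of the longest annotated principal transcripts, not of those expressed here, set this scale, and the order of the genes depends on that choice. PSMA4, at a mean of 514 CPM, came to 117 CPM per kb with a length of 4.411 kb.

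The constitutive catalytic subunits were expressed and their immunoproteasome counterparts were far lower, with PSMB10 above the floor in every library and PSMB8 at 0 in most. The PSMB8 and PSMB9 rows carry identifiers outside the primary assembly, and their primary identifiers have no row. How reads shared between such copies were counted is not given, which limits these low counts. For replicates 1, 2 and 3 in turn, PSMB5, the chymotrypsin-like subunit, had 56, 47 and 65.1 CPM in fed and 83.6, 77.1 and 72.7 in starved vector cells, and 45, 61.7 and 49 in fed and 75.7, 79.3 and 68.9 in starved TRPML3 cells. PSMB6, the caspase-like subunit, had 52.4, 49.1 and 53.4 CPM in fed and 61.6, 57 and 60.6 in starved vector cells, and 38.6, 49.6 and 46.4 in fed and 49.7, 59.7 and 57 in starved TRPML3 cells. PSMB5 and PSMB6 were each within a factor of 2 across the 12 libraries.

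PSMB7, the trypsin-like subunit, had 26.7, 123 and 164 CPM in fed and 159, 39.8 and 173 in starved vector cells, and 125, 122 and 146 in fed and 152, 173 and 169 in starved TRPML3 cells. Here 2 libraries stood far below the other 10, vector fed replicate 1 and vector starved replicate 2. PSMB8 had 0, 4 and 5 counts in fed and 9, 0 and 0 in starved vector cells, and 0, 6 and 0 in fed and 0, 0 and 0 in starved TRPML3 cells, or 24 in all. PSMB9 had 0.274, 0.525 and 0.574 CPM in fed and 0.196, 0 and 0.72 in starved vector cells, and 0.528, 0.208 and 0.163 in fed and 0.292, 0.15 and 0.637 in starved TRPML3 cells. PSMB10 had 1.26, 1.83 and 1.38 CPM in fed and 1.27, 0.829 and 1.15 in starved vector cells, and 0.624, 2.03 and 0.782 in fed and 0.905, 0.509 and 2.37 in starved TRPML3 cells. In CPM per kb, PSMB8 was at a median of 0% of PSMB5 (highest library 0.303%), PSMB9 at 0.605% of PSMB6 (range 0 to 1.49%) and PSMB10 at 0.661% of PSMB7 (range 0.237% to 3.81%). The highest of these last ratios belong with the low PSMB7 libraries. The testis-specific alpha subunit PSMA8 and the thymus-specific beta subunit PSMB11 had 0 counts in every library, which allows a level of up to 0.0906 CPM in the shallowest one. Of the interferon and antigen-processing list, 11 of 12 genes passed the filter, and 0 of them passed an adjusted p of 0.05 in any comparison.

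**Figure D1:**
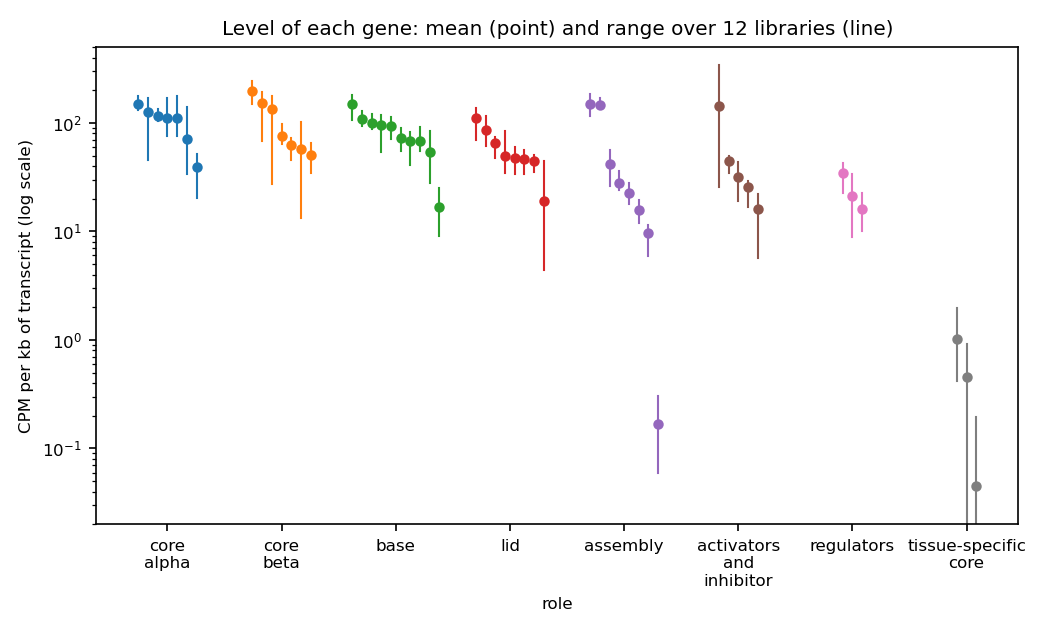
Level of each detected gene in CPM per kilobase of transcript on a log axis, by role, with the mean of 12 libraries as a point and the range as a line that is cut at the lower axis limit for libraries at 0. The core, base and lid subunits lie between 16.7 and 196, while PSMB10, PSMB9, PSMB8 and the assembly factor PSMD5 lie near or below 1.

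Most members varied little between replicates. The median within-group SD was 0.273 on the log2 CPM scale over the 50 tested members and 0.551 over all 18030 tested genes, and 41 of the 50 lay below the latter. The members were also more abundant, with a median level of 119 CPM against 10.5 over all genes, and the part of abundance in their spread was not tested. PSMA4, an alpha subunit and the most abundant core alpha member in CPM, had 468, 479 and 459 CPM in fed and 569, 519 and 522 in starved vector cells, and 501, 465 and 503 in fed and 524, 589 and 576 in starved TRPML3 cells. Its SD of 0.068 was lower than that of all but 0.0943% of tested genes. POMP, the chaperone that matures the core, had 191, 186 and 179.9 CPM in fed and 190.3, 195 and 189 in starved vector cells, and 184, 188 and 206 in fed and 184, 223 and 201 in starved TRPML3 cells. Its highest library was 1.24 times its lowest.

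At the other end stood a few members with wide swings inside groups. PSME3, the PA28-gamma activator of nuclear proteasomes, had 38.4, 25.8 and 324 CPM in fed and 110.1, 109 and 165 in starved vector cells, and 90.2, 29.8 and 248 in fed and 343, 135 and 78.6 in starved TRPML3 cells. Both fed replicates 3 were several times above fed replicates 1 and 2, so that most of the 13.3-fold range lay inside the vector fed group. Its exons overlap those of BECN1 on the opposite strand, and the use of strand in counting is not given in the sources used here. PSMB2, a core beta subunit named here after its values were seen, ranged from 35.6 to 275 CPM and was lowest in vector starved replicate 2. The within-group SD of 4 of the 32 core, base and lid subunits exceeded the median of all genes. Exons of another gene overlap those of 10 members on the same strand and of 22 on the opposite strand, among them PSMD7, PSMD14, PSMC1 and NFE2L1. The identifiers of 6 members (PSMB3, PSMB8, PSMB9, PSMC4, PSME1 and PSME2) lie outside the primary assembly in GENCODE release 29, and how reads were shared between such copies is not given in the sources used here.

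More core, base and lid subunits lay on the same side of 0 for starvation than for TRPML3, although none of the genes passed the multiple-testing threshold. In the average of the vector and TRPML3 cells, 28 of the 32 subunits had a log2 fold change above 0 (starved minus fed, median 0.26), against 50.7% of all tested genes (median 0.01). All 10 base subunits (median 0.31) and all 7 core beta subunits (0.27) lay above 0, as did 6 of 8 lid subunits (0.24) and 5 of 7 core alpha subunits (0.17). Assembly factors did not share this, with 3 of 8 above 0 and a median of -0.18. Whether the classes differ was not tested. For the average TRPML3 effect 21 of the 32 subunits lay above 0 (median 0.03), as did 8681 of the 18030 genes. In bulk RNA, a difference in the share of cells and one in RNA per cell cannot be told apart.

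In edgeR's quasi-likelihood test with Benjamini-Hochberg adjustment, 0 of the 50 members passed an adjusted p of 0.05 for the average starvation effect, as did 0% of the 18030 genes. At an unadjusted p under 0.05 there were 12 members, 11 of them higher and 1 lower in starved cells. That is 24% of the members, against 9.45% of all genes (4.66% higher and 4.79% lower). The fit takes all libraries as independent, although vector and TRPML3 libraries of the same number were correlated within a serum state. The p-values of this average may therefore be too small, for members and for all genes. The DESeq2 Wald test called 1 member, PSMB5, and 1.52% of all genes.

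**Figure D2:**
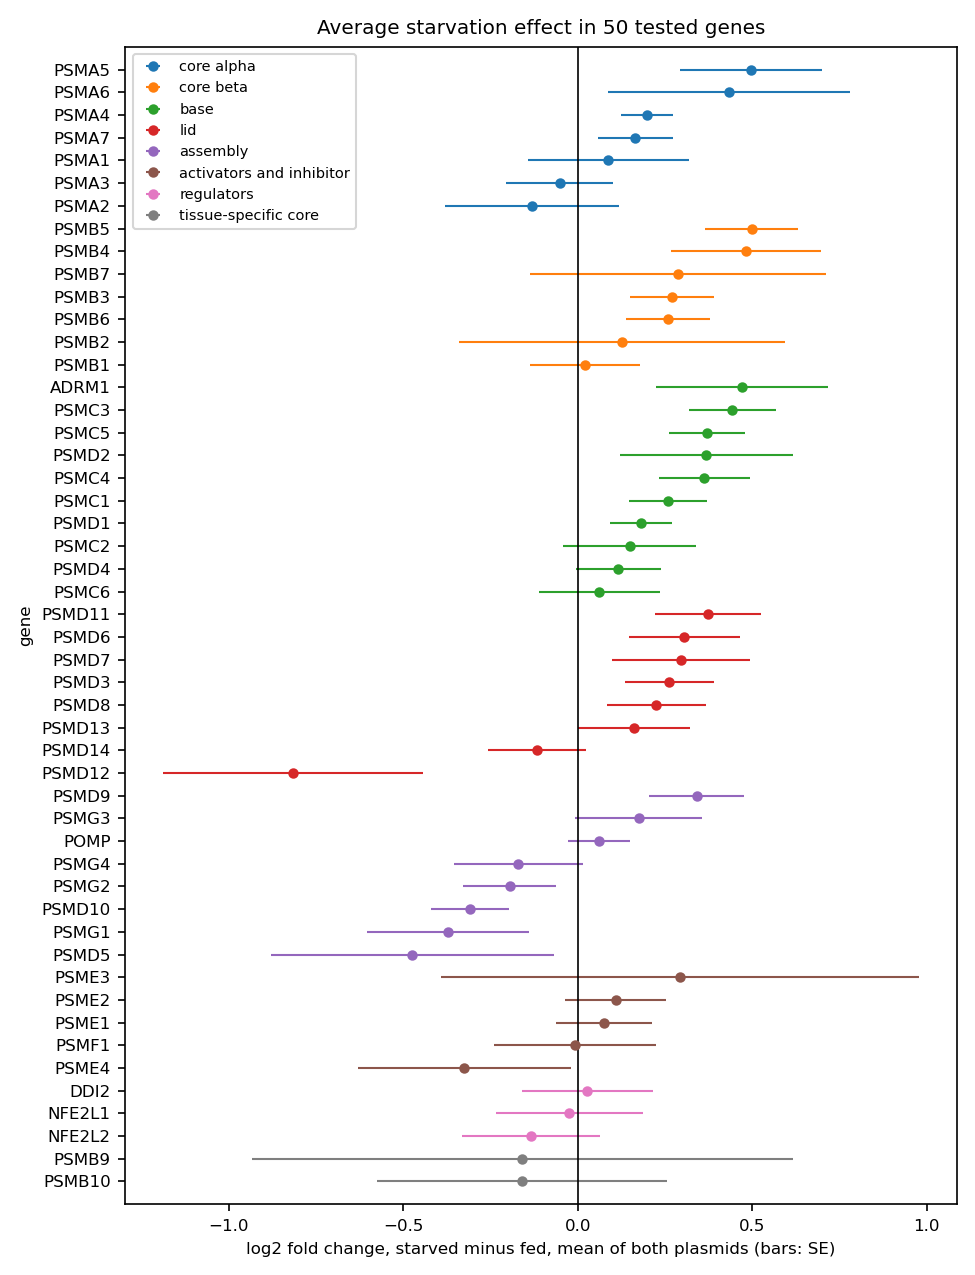
Log2 fold change between starved and fed cells, averaged over both plasmids, for each of the 50 tested genes, ordered by role, with bars for the standard error. Base and core beta subunits all lie right of 0, PSMD12 lies farthest left at -0.82, and 5 of the 8 assembly factors lie left of 0.

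PSMB5 (ENSG00000100804, chr14:23016543-23035230, minus strand, GRCh38) had the smallest p of any member for this effect. Its 6 fed libraries ran from 45 to 65.1 CPM and its 6 starved libraries from 68.9 to 83.6 CPM, so the groups did not overlap. The average log2 fold change was 0.50 ± 0.13 (SE, n = 6 against 6 libraries taken as independent, adjusted p = 0.352 in edgeR). In DESeq2 it was 0.49 with an adjusted p of 0.0224. Neither fit allows for the correlation between vector and TRPML3 libraries of the same number, so the SE and both p-values may be too small. Within plasmids the edgeR log2 fold changes were 0.47 ± 0.19 in vector cells and 0.52 ± 0.19 in TRPML3 cells. Mean levels were 56.0 ± 9.04 CPM (SD, n = 3) in fed and 77.8 ± 5.49 in starved vector cells, and 51.9 ± 8.72 in fed and 74.6 ± 5.31 in starved TRPML3 cells.

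The ATPases of the base came next. PSMC3 (ENSG00000165916, chr11:47418769-47426473, minus strand) had 179, 168 and 226 CPM in fed and 284, 280.2 and 273 in starved vector cells, and 202, 171 and 258 in fed and 239, 283 and 277 in starved TRPML3 cells. The only fed library above any starved library was TRPML3 fed replicate 3, which exceeded TRPML3 starved replicate 1. The average log2 fold change was 0.44 ± 0.12 (SE, edgeR adjusted p = 0.363). PSMC5 (ENSG00000087191, chr17:63827152-63832026, plus strand) had 130.2, 114 and 138 CPM in fed and 168, 169 and 159 in starved vector cells, and 130.2, 112 and 156 in fed and 169.8, 179.7 and 164 in starved TRPML3 cells. All 6 starved libraries lay above all 6 fed libraries, with TRPML3 fed replicate 3 and vector starved replicate 3 closest together. The average log2 fold change of PSMC5 was 0.37 ± 0.11 (SE, edgeR adjusted p = 0.363). Its exons overlap those of FTSJ3 on the opposite strand.

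Groups of 6 that did not overlap were found for 4 members, all higher in starved cells (PSMB5, PSMC5, PSMA4 and PSMB3), and for 0 members in the other direction, where the shares over all genes were 0.754% and 0.499%. Because same-numbered vector and TRPML3 libraries were correlated within a serum state, such groups hold fewer independent values than libraries. The differences in PSMA4 and PSMB3 were small, with log2 fold changes of 0.20 ± 0.07 and 0.27 ± 0.12. The other members at an unadjusted p under 0.05 with higher values in starved cells were PSMA5 (0.50 ± 0.20), PSMB4 (0.48 ± 0.21), PSMD11 (0.37 ± 0.15), PSMC4 (0.36 ± 0.13), PSMD9 (0.34 ± 0.14) and PSMC1 (0.26 ± 0.11). The 1 member at that level with lower values was PSMD10, or gankyrin, a chaperone of base assembly and the most abundant assembly factor in CPM. It had 259, 276 and 207 CPM in fed and 204, 192 and 221 in starved vector cells, and 269.7, 285 and 249.5 in fed and 179.5, 211 and 239 in starved TRPML3 cells. All 3 TRPML3 starved libraries lay below the TRPML3 fed ones, while in vector cells fed replicate 3 fell among the starved libraries, and the average log2 fold change of PSMD10 was -0.31 ± 0.11 (edgeR adjusted p = 0.431).

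The separation of fed and starved cells was uneven over the replicate numbers. Of the 32 core, base and lid subunits, 5, 5 and 23 lay above their own 12-library mean in vector fed replicates 1, 2 and 3, and 5, 7 and 21 in the TRPML3 fed ones. In starved cells the numbers were 30, 22 and 24 for vector and 21, 29 and 24 for TRPML3. Thus fed replicates 1 and 2 were low for most subunits, whereas both fed replicates 3 were level with the starved libraries. The summed level of the 32 subunits was 4241, 4412 and 5247 CPM in fed and 5635, 5002 and 5177 in starved vector cells, and 4423, 4431 and 5332 in fed and 5076, 5879 and 5551 in starved TRPML3 cells.

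**Figure D3:**
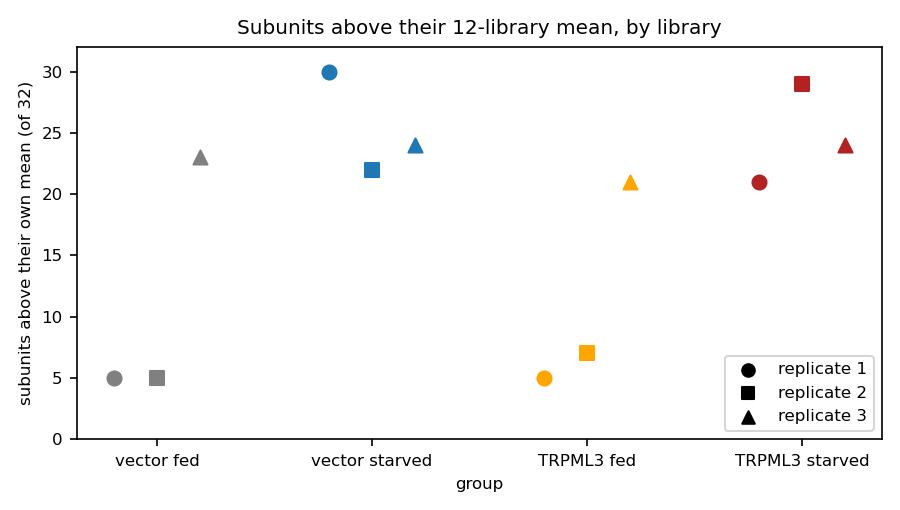
Number of the 32 core, base and lid subunits above their own mean over 12 libraries, for each library, with the replicate number as the symbol. Fed replicates 1 and 2 lie at 5 to 7 and the other 8 libraries at 21 to 30.

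**Figure D4:**
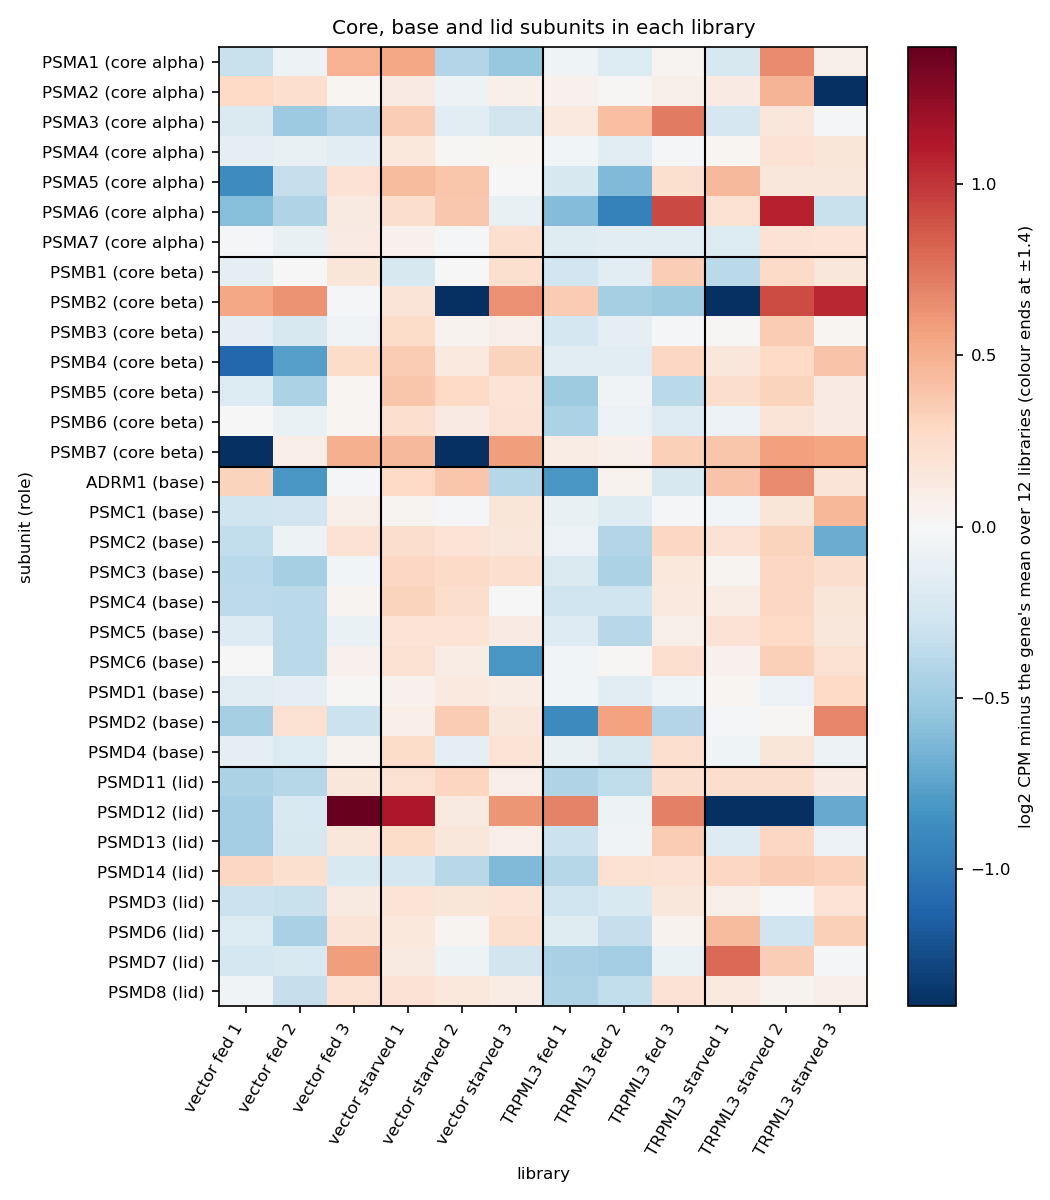
Log2 CPM of each core, base and lid subunit minus its mean over 12 libraries, with libraries in columns and subunits in rows by role. Blue columns at vector fed and TRPML3 fed replicates 1 and 2 show subunits below their mean, and PSMD12, PSMB2 and PSMB7 show the deepest colours in single libraries.

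Replicate 3 was the number with the highest mitochondrial share of counts in all 4 groups, and the part of that share in the result was not tested. With replicate number 3 left out of all groups, 5 members passed an adjusted p of 0.05 for the average starvation effect in edgeR, all higher in starved cells: PSMD11, PSMB4, PSMC4, PSMC3 and PSMA6. The same fit called 4.49% of 18052 genes, 2.54% higher and 1.94% lower. PSMC3 then had an adjusted p of 0.0408, and PSMB5 one of 0.0745. Unadjusted p-values under 0.05 were then found for 20 of 50 members and 23.3% of all genes. Without replicate 1 they were found for 1 member and 4.47% of all genes, and without replicate 2 for 2 members and 4.35%. The count was 7 members without vector fed replicate 2 (7.32% of all genes), vector starved replicate 1 (8.04%) or vector starved replicate 2 (8.14%), and 6 without TRPML3 fed replicate 1 (7.05%).

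Replicate 3 itself was compared with replicates 1 and 2 over all groups, and 0 of 50 members passed (0.0166% of all genes did). This comparison fits 1 shift for fed and starved cells together. In the numbers of subunits above their mean, replicate 3 stood apart in fed cells only. At an unadjusted p under 0.05 there were 6 members, or 12% of them, against 12.6% of all genes, and DESeq2 called 0 members and 5.8% of all genes. Without regard to p, 38 of the 50 members and 27 of the 32 subunits lay above 0, that is higher in replicate 3 (subunit median 0.14), as did 52.3% of all genes (median 0.02). The member with the smallest p was PSMB1, a core beta subunit with the highest level per kb, which had 163, 179 and 201 CPM in fed and 153, 180.4 and 209 in starved vector cells, and 148, 161 and 228 in fed and 138, 215 and 200.1 in starved TRPML3 cells. Its replicates 3 were highest in vector fed, vector starved and TRPML3 fed cells, but not in TRPML3 starved cells (log2 fold change 0.33 ± 0.11, edgeR adjusted p = 0.281). PSMC1, another base ATPase, had 246, 249 and 316 CPM in fed and 306, 294 and 336 in starved vector cells, and 277, 266 and 293 in fed and 292, 336 and 411 in starved TRPML3 cells. The log2 fold change of PSMC1 was 0.25 ± 0.09 (edgeR adjusted p = 0.297), and its replicates 3 were the highest in every group. PSMB4, a core beta subunit, had 65.4, 81.9 and 168 CPM in fed and 180.0, 154 and 174 in starved vector cells, and 126, 126 and 172 in fed and 157, 170.0 and 185 in starved TRPML3 cells. The PSMB4 difference was 0.49 ± 0.18 on the log2 scale (edgeR adjusted p = 0.331), and vector fed replicates 1 and 2 held its lowest values.

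Within single plasmids the starvation comparisons gave similar medians. In vector cells the median log2 fold change of the 32 subunits was 0.24, with 25 above 0 (49.4% of all genes), and in TRPML3 cells it was 0.29, with 28 above 0 (51.2%). Adjusted p-values under 0.05 were found for 0 of 50 members in both, with 0.00555% of all genes called in vector cells and 0% in TRPML3 cells. Unadjusted p-values under 0.05 were found for 6 members in vector cells (4.44% of all genes) and 5 in TRPML3 cells (5.71%), and DESeq2 called 0 members in both (0.239% and 0.549% of all genes). Groups did not overlap for 9 members higher and 2 lower in vector cells (5.36% and 4.57% of all genes) and for 9 higher and 4 lower in TRPML3 cells (5.56% and 5.66%). Without replicate 3 the unadjusted counts were 17 members in vector cells (14.5% of all genes) and 14 in TRPML3 cells (16.1%). Without replicate 1 they were 1 and 0 (2.29% and 3.20% of all genes), and without replicate 2 they were 0 and 3 (2.66% and 3.01%).

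The lid subunits PSMD12 and PSMD14 had lower values in starved cells, each with 1 plasmid. PSMD12 (ENSG00000197170, chr17:67337916-67366627, minus strand), a scaffold subunit of the lid, had 48.9, 58.7 and 195 CPM in fed and 149, 74.1 and 104 in starved vector cells, and 110.1, 64.9 and 111 in fed and 19.3, 23.9 and 41.9 in starved TRPML3 cells. All 3 TRPML3 starved libraries were the lowest of the 12, and vector fed libraries alone spanned 48.9 to 195 CPM. The log2 fold change of PSMD12 on starvation was -1.75 ± 0.54 in TRPML3 cells (SE, n = 3 against 3, edgeR adjusted p = 0.819), and 0.12 ± 0.52 in vector cells. TRPML3 against vector gave -1.95 ± 0.54 in starved cells (adjusted p = 1), and these comparisons share the TRPML3 starved libraries. The interaction, which tests whether the starvation response differed between plasmids, gave -1.86 ± 0.75 for PSMD12 (adjusted p = 1).

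PSMD14 (ENSG00000115233, chr2:161308038-161411717, plus strand), the deubiquitinase of the lid and its most abundant member in CPM, had 256, 244 and 179.8 CPM in fed and 176, 159.9 and 136 in starved vector cells, and 159, 242 and 240.0 in fed and 255, 266 and 262 in starved TRPML3 cells. The vector starved libraries held 3 of the 4 lowest values. The starvation difference of PSMD14 was -0.53 ± 0.20 on the log2 scale in vector cells and 0.29 ± 0.20 in TRPML3 cells, and groups did not overlap in either. TRPML3 against vector in starved cells gave 0.73 ± 0.20 (edgeR adjusted p = 1) and the interaction 0.82 ± 0.28 (adjusted p = 1). PSMD7, a lid subunit that pairs with PSMD14, had 67.9, 69.3 and 120.3 CPM in fed and 87.9, 76.7 and 67.2 in starved vector cells, and 58.7, 57.5 and 75.5 in fed and 139.7, 103 and 78.7 in starved TRPML3 cells. In TRPML3 cells its starved libraries lay above the fed ones by 0.74 ± 0.28 (edgeR adjusted p = 0.834), while the vector groups overlapped with fed replicate 3 the highest.

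**Figure D5:**
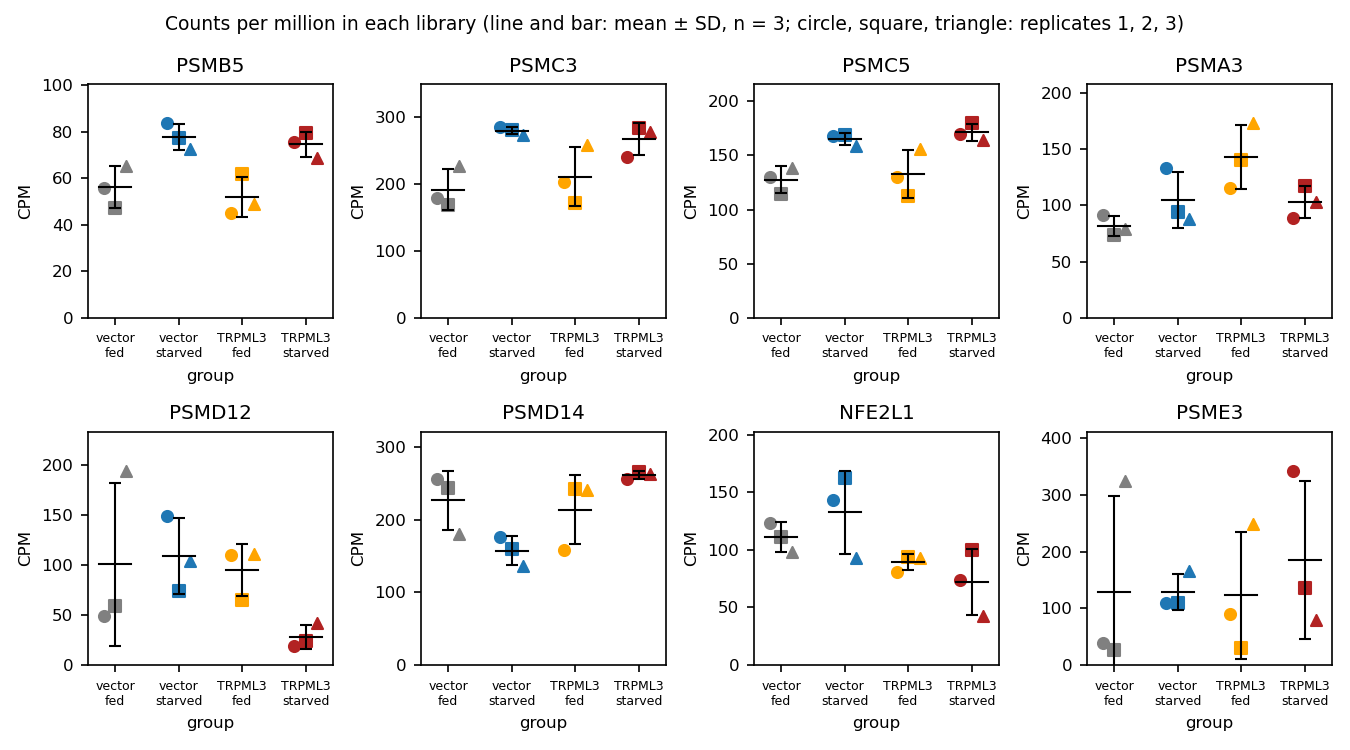
CPM of 8 members in each of 12 libraries, with the group mean and SD (n = 3) as line and bar and the replicate number as the symbol. PSMB5 and PSMC5 have all starved libraries above all fed libraries, PSMD12 is lowest in TRPML3 starved libraries at 19.3 to 41.9 CPM, and PSME3 ranges 13.3-fold.

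For TRPML3 no proteasome gene passed the test in either serum state. In fed cells the median log2 fold change of the 50 members was 0.01 (TRPML3 minus vector) and in starved cells 0.02, against -0.01 over all genes in both, and both members' medians turned below 0 (-0.06 and -0.08) when libraries were scaled by total counts only. In edgeR 0 members passed an adjusted p of 0.05 (0.0111% of all genes in fed and 0.00555% in starved cells). Unadjusted p-values under 0.05 were found for 1 member in fed cells (2.21% of all genes), for 3 in starved cells (2.2%) and for 4 in the interaction (2.07%), where 0 members and 0% of genes passed the adjusted threshold. DESeq2 called 0 members in these 3 comparisons (0.167%, 0.239% and 0.15% of all genes). Groups did not overlap for 3 members higher and 2 lower in fed cells (3.22% and 3.87% of all genes) and for 1 higher and 1 lower in starved cells (3.02% and 3.56%).

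The 1 member in fed cells was PSMA3 (ENSG00000100567, chr14:58244831-58272012, plus strand), a core alpha subunit. It had 91.1, 73.9 and 78.9 CPM in fed and 133, 93.8 and 87.7 in starved vector cells, and 115, 141 and 173 in fed and 88.7, 117 and 103 in starved TRPML3 cells. All 3 TRPML3 fed libraries exceeded all 3 vector fed libraries, whereas the starved groups overlapped. The log2 fold change of PSMA3 was 0.81 ± 0.22 in fed cells (SE, edgeR adjusted p = 1), the interaction was -0.84 ± 0.31 and the average TRPML3 effect 0.40 ± 0.15. PSME2, a subunit of the interferon-inducible PA28 activator, had 23.6, 34.5 and 30.9 CPM in fed and 41.1, 31.5 and 34.5 in starved vector cells, and 40.4, 37.3 and 40.2 in fed and 38.7, 35.7 and 39.3 in starved TRPML3 cells. The fed groups of PSME2 did not overlap, with nearest values of 34.5 and 37.3 CPM (log2 fold change 0.41 ± 0.20, edgeR adjusted p = 1). PSMD7 had the next smallest p in fed cells at -0.43 ± 0.28, with overlapping groups.

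The regulators were expressed in all groups. NFE2L1 (ENSG00000082641, chr17:48048329-48061487, plus strand) had 124, 111 and 98 CPM in fed and 143, 162 and 92.6 in starved vector cells, and 81.1, 94.1 and 93.2 in fed and 73.9, 100.3 and 42.8 in starved TRPML3 cells. Values of TRPML3 fed libraries all lay below those of vector fed ones, and in starved cells TRPML3 replicate 3 was lowest and the groups overlapped. The log2 fold change for TRPML3 was -0.31 ± 0.30 in fed and -0.88 ± 0.30 in starved cells, and -0.59 ± 0.21 on average (edgeR adjusted p = 1 in each), while the average starvation effect of NFE2L1 was -0.02 ± 0.21. For the average TRPML3 effect 0 members passed (0.0111% of all genes did), 4 had an unadjusted p under 0.05 (2.62%), and DESeq2 called 0 (0.183%).

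NFE2L2 had 106, 65.9 and 96.2 CPM in fed and 116, 85.1 and 64.5 in starved vector cells, and 117, 118 and 119 in fed and 121, 109 and 66.4 in starved TRPML3 cells. Both starved replicates 3 were low beside the other starved libraries, and the average log2 fold changes were -0.13 ± 0.20 for starvation and 0.28 ± 0.20 for TRPML3. DDI2, the protease that activates NFE2L1 and the most abundant regulator in CPM, had 134, 169 and 180.1 CPM in fed and 192, 240.0 and 132 in starved vector cells, and 171, 162 and 207 in fed and 192, 179.9 and 108 in starved TRPML3 cells. The starved replicates 3 held the lowest DDI2 value in each plasmid, and its average effects were 0.03 ± 0.19 for starvation and -0.03 ± 0.19 for TRPML3. DDI2 shares exons with RSC1A1 on the same strand. Of the 14 members tested with the response element letters in a window, 8 were higher on average starvation (median 0.09) and 4 had an unadjusted p under 0.05. Of the 30 with a window lacking them, 21 were higher (median 0.15) and 8 had such a p. Over all genes 50.7% were higher and 9.45% had such a p.

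Among the remaining base members, ADRM1, a ubiquitin receptor, had 30.2, 13.9 and 24 CPM in fed and 29.6, 31.8 and 18.4 in starved vector cells, and 13.9, 25.2 and 20.9 in fed and 32.1, 38.5 and 27.7 in starved TRPML3 cells. The average starvation effect of ADRM1 was 0.47 ± 0.25 (edgeR adjusted p = 0.600), and its groups overlapped in vector cells but not in TRPML3 cells. PSMD1, the large scaffold of the base and its most abundant member in CPM, had 293, 298 and 332 CPM in fed and 342, 359.7 and 352 in starved vector cells, and 319.9, 293 and 313 in fed and 334, 311 and 398 in starved TRPML3 cells. PSMD1 was steady, with a within-group SD of 0.11 on the log2 scale. The remaining members are given by their range over the 12 libraries in CPM. Among core alpha subunits PSMA1 ran from 113 to 257, PSMA2 from 68.2 to 253, PSMA5 from 75.9 to 192, PSMA6 from 34.9 to 143 and PSMA7 from 129.8 to 175, and the core beta subunit PSMB3 ran from 49.2 to 74.7. The base ATPases PSMC2, PSMC4 and PSMC6 ran from 126 to 253, 87.9 to 142 and 118 to 261, and the ubiquitin-binding PSMD2 and PSMD4 from 96.1 to 287 and 126 to 175. Of the lid, PSMD3 ran from 76 to 108, PSMD6 from 88.2 to 164, PSMD8 from 73.7 to 115, PSMD11 from 138 to 231 and PSMD13 from 66.9 to 120.1. PSMA2 was lowest by far in TRPML3 starved replicate 3, while PSMA7 and PSMD4 were among the evenest.

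The chaperones that build the alpha ring had lower levels per kb than the median core alpha, core beta, base and lid subunit. PSMG1 ran from 56 to 122 CPM, PSMG2 from 40.2 to 61.2, PSMG3 from 25 to 39.2 and PSMG4 from 4.94 to 9.58, and the base chaperone PSMD9 from 33.4 to 54. Per kb their means were 41.7, 28.1, 22.7, 9.59 and 15.8 CPM, against role medians of 48.8 to 112 for the subunits. Among activators, PSME1, the partner of PSME2, ran from 34.6 to 50.2 CPM and PSME4, or PA200, from 40 to 156, and the inhibitor PSMF1 ran from 81.8 to 185. For average starvation 3 of the 5 activators and inhibitors lay above 0 (median 0.07), and 0 had an unadjusted p under 0.05. The row of the assembly factor PSMD5, which holds base precursors, had few counts, with a mean of 0.574 CPM. The annotation release and the handling of shared reads are not given, which limits this low value.

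Genes that act with the proteasome or share its regulators were read beside the subunits. Of 24 partners and suppliers of ubiquitin, 0 passed an adjusted p of 0.05 in edgeR in any comparison, and 4 had an unadjusted p under 0.05 for average starvation, all higher, against 9.45% of all genes. Among them AKIRIN2, which carries proteasomes into the nucleus, had a log2 fold change of 1.87 ± 0.49 with overlapping groups. VCP, the segregase that delivers unfolded substrates, had 0.32 ± 0.12, and the proteasome-bound thioredoxin TXNL1 had 0.33 ± 0.12 with groups that did not overlap. Of 16 targets of NFE2L2, 13 lay above 0 (median 0.18) against 50.7% of all genes, 0 passed, and ABCC2 alone had an unadjusted p under 0.05 (1.20 ± 0.39). Among cell type markers, VIM of the HEK293 line (0.53 ± 0.20) and ALB (1.50 ± 0.47, mean level 0.696 CPM) had such a p, and their part in the subunit values was not tested.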

How the data were processed

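Polyadenylated RNA of 12 cultures was sequenced. The authors deposited raw counts per gene, and, in a second table, a normalized signal, the count divided by a factor per library. The submitters' processing notes name GRCh38, FastQC, fastp, HISAT2, StringTie and DESeq2, without roles. The annotation release, the use of strand and the handling of shared reads are not given in the sources used here. Groups and replicate numbers came from the titles.

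Raw counts were tested with edgeR 4.0.16 in R 4.3.3 (TMM normalization, filterByExpr on group, robust quasi-likelihood fit to all 12 libraries, 8 residual degrees of freedom, Benjamini-Hochberg adjustment over 18030 genes, threshold 0.05). Each SE is the log2 fold change divided by the root of its F. CPM uses TMM library sizes, and log2 CPM a prior count of 2. The scripts were tested on simulated data with known changes. Alternatives were DESeq2 1.42.0, limma-trend (limma 3.58.1) on log2 of the deposited signal + 1, other scalings and filters, the replicate block, the 6 libraries compared alone, and libraries left out. An alternative without members off the primary assembly was chosen after seeing the data. Transcript lengths, positions and exon overlaps came from GENCODE release 29 (GRCh38), promoters from RefSeq. Each length was that of the longest principal transcript or, without one, of the longest basic protein-coding transcript.

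The members and the lists (partners, NFE2L2 targets, interferon and antigen processing, HEK293 line, other cell types) were chosen with earlier results of these data known. Values in every library are given for the regulators, POMP, ADRM1, the 6 catalytic subunits, the member with the highest CPM of each role and the 3 members with the smallest p in each of 8 comparisons. From the other lists, at most 3 genes per comparison with an unadjusted p under 0.05 could be named for a difference. Cell type markers are also named for their level. Other members named are described by ranges or estimates.

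Replicate numbers were checked by correlating deviations from group means over all tested genes. For fed cells r was 0.112, 0.145 and 0.326 between vector and TRPML3 libraries of the same number, so the numbers were taken to pair these. For starved cells it was 0.131, 0.0949 and 0.316. Fed against starved libraries gave -0.0757 to 0.00748. The average starvation effect takes the paired vector and TRPML3 libraries as independent, so its SEs and p-values may be too small. None of the libraries was a copy of another (chi-square per degree of freedom at least 139 in 66 pairs). Of the table's columns, 0 held samples that are not analysed here.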

Additional observations from a re-analysis of the deposited data

Results flagged for a closer look

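Of the 44 rows named as pseudogenes of proteasome genes, 7 were above the floor of 3 counts in every library, although no comparison used them. Their lowest counts over the 12 libraries were 115 for PSMA6P1, 315 for PSMC1P1, 15 for PSMC1P9, 29 for PSMC2P1, 28 for PSMD12P1, 29 for PSMD7P1 and 7 for PSME2P1. Over all libraries PSMA6P1 held 7.67% as many counts as PSMA6, PSMC1P1 3.92% as many as PSMC1 and PSMD12P1 1.57% as many as PSMD12. How reads matching both a gene and such a copy were counted is not given in the sources used here. Another 11 of the 44 rows had 0 counts in all libraries. The groups held 3 libraries each, too few for a check of single libraries against their group.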

How the results depend on the processing

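Alternatives gave 392 values of the members' median log2 fold changes and counts of calls. Of these, 389 stayed within 0.121 log2 (a median's spread between replicates) or within 1.5 times (a count). Every main call count was 0, and 0.121 exceeds the members' main medians for TRPML3 and the interaction (0.0084 to 0.024). For such values the rule itself makes staying within these limits likely, so the 389 say little about them. Of the 200 medians among the 392, 25 changed sign, 0 of these for a starvation effect. For the average starvation effect, 1 member was called by the DESeq2 Wald test and 5 without replicate number 3. Leaving out libraries gave 0 to 5. The median over members for starvation in vector cells ran from 0.0925 to 0.330 when libraries or replicate numbers were left out, and from 0.15 to 0.20 otherwise. PSMB5 passed in DESeq2 and PSMC3 passed without replicate 3.

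With the replicate block, 0 members were called in the 7 comparisons so fitted, and for average starvation the median over members was 0.16, with 14 members and 10.3% of all genes at an unadjusted p under 0.05, and adjusted p-values of 0.315 for PSMB5 and 0.275 for PSMC3. The block changed no call. It fits 1 shift per replicate number for all 4 groups, whereas fed and starved libraries of the same number were hardly correlated (-0.0757 to 0.00748). It thus does not model the pairing within a serum state. Counts at an unadjusted p moved by over 1.5 times in some alternatives, as shares of all genes also differed. DESeq2 gave 9 members for starvation in TRPML3 cells (7.84% of all genes) and 2 for TRPML3 in fed cells (3.23%). Scaling by total counts gave 2 for the average TRPML3 effect (3.22%). Without the filter there were 3 for starvation in TRPML3 cells (4.18%). The 6 libraries alone gave 3 in each starvation comparison (4.11% in vector and 5.01% in TRPML3 cells). Main shares were 4.44% and 5.71% for starvation in vector and TRPML3 cells, 2.21% for TRPML3 in fed cells and 2.62% for its average. Scaling by total counts shifted the median of all genes by at most -0.11 (TRPML3 in starved cells). Low counts limit PSMB8, PSMB9, PSMB10 and PSMD5, and identifiers outside the primary assembly limit PSMB8 and PSMB9 as well. The spread between replicates limits the rest.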
